A study of Mus musculus with 6 samples.

Results

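Of the 123063 transcripts in the table from cultured mouse cortical neurons, 5868 carried the GENCODE transcript type for nonsense-mediated decay, and 1647 of these had a mean of at least 50 expected counts over the 6 libraries. These 1647 transcripts, from 1369 genes, are described here. Expected counts are RSEM's estimates of the reads that belong to each transcript. The transcripts were selected on the annotated type and on this mean over all 6 libraries, so their abundance is a description only. Of the other transcripts of this type, 1138 were at 0 in all 6 libraries. Just under the minimum lay Gm45799-204, Adsl-210 and Fbxo44-204, with means of 49.8, 49.9 and 49.97, and just over it Naa60-205, Ap3m1-202 and Plk1-203, with means of 50.03, 50.03 and 50.1. A mean over all libraries can be carried by 1 group: 345 of the 1647 had a mean under 50 in at least 1 group, and 45 were at 0 in both libraries of a group.

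The neurons were taken from the neocortex of C57BL/6 mouse embryos at embryonic day 14 and kept in culture. Wild-type neurons were sampled after 1 and 3 days in vitro (DIV1 and DIV3), either side of the onset of axon growth, and neurons labelled Ptbp2 KO (Ptbp2-/- in the design text) at DIV1. With 2 libraries a group, called biological replicates without a mention of separate embryos or cultures, p-values cover only the variation from library to library, which may be technical. The labels give neither the deleted part of Ptbp2 nor a promoter or Cre line, and both comparisons below use the same wild-type DIV1 libraries as controls. Knockout replicate 1 stood apart from the other libraries in its transcript shares, and how the main counts in the knockout moved without it is stated. Totals ran from 39104879 to 75522198 expected counts per library.

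Nonsense-mediated decay is the pathway that degrades messenger RNAs whose translation stops too early. A stop codon well upstream of the last exon junction leaves an exon junction complex on the RNA behind the terminating ribosome, and the UPF and SMG proteins then mark the RNA for destruction. Many genes of splicing factors, SR proteins above all, limit their own output by splicing part of their transcripts into such a form, often through a "poison" exon, and in neurons the polypyrimidine tract binding proteins PTBP1 and PTBP2 are known to steer several such exons. The transcript level seen by sequencing is what is left after decay. A share thus depends on splicing and decay, among other things, and these data cannot take them apart.

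The annotated event is visible in the sequence. For 6 transcripts with an extra exon, the coding part of that exon is given from the GENCODE M21 transcripts, 5′ to 3′, with the stop codon that ends translation in capitals. They were chosen because Tra2a, Tra2b, Srsf3 and Snrpb are textbook cases of such exons in splicing genes, Tnik-207 is the most abundant transcript with its stop in an extra exon, and Kif21b-204 was chosen after its values were seen.
Tra2a-202: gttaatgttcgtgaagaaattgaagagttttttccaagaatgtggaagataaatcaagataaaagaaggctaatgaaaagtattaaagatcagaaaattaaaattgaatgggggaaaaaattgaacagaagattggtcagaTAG
Tra2b-206: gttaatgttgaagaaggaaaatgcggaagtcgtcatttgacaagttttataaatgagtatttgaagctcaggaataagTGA
Srsf3-201: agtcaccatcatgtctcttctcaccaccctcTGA
Snrpb-203: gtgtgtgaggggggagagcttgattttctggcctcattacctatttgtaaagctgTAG
Tnik-207: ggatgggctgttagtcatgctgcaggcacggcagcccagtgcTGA
Kif21b-204: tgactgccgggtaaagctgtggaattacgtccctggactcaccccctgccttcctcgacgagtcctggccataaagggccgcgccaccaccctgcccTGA
On GRCm38 the printed stretches lie on the minus strand at chr6:49252965-49253108 (Tra2a), chr16:22259181-22259261 (Tra2b) and chr2:130176695-130176752 (Snrpb), and on the plus strand at chr17:29039454-29039487 (Srsf3), chr3:28549541-28549585 (Tnik) and chr1:136173472-136173571 (Kif21b). The whole extra exons measured 306, 276, 124, 456, 104 and 180 nt in that order. Reading ran 144 nt into the Tra2a exon and 34 nt into the Srsf3 exon before the stop.

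Other transcripts reach an early stop without holding it in new sequence. In Clk1-210 and Dlg4-205 an exon of the main coding transcript is skipped, and in Bak1-201 a very short exon is added, so that a stop further on comes into frame. The skipped or added exon is printed in capitals with 20 nt of each neighbouring exon in lower case.
Clk1-210: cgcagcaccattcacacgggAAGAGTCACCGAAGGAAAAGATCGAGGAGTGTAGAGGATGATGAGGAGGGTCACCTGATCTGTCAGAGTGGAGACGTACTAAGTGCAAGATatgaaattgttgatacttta
Dlg4-205: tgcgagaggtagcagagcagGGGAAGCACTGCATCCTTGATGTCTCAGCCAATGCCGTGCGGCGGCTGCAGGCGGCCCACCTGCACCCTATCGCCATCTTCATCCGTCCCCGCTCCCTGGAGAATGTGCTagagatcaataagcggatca
Bak1-201: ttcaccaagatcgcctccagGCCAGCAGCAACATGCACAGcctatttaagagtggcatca
The Clk1 exon has 91 nt (chr1:58420121-58420211, minus strand), the Dlg4 exon 110 nt (chr11:70043658-70043767, plus strand) and the Bak1 exon 20 nt (chr17:27021663-27021682, minus strand). None of these lengths is a multiple of 3. Clk1 encodes a kinase of SR proteins, Dlg4 the synaptic scaffold PSD-95, and Bak1 a protein that promotes apoptosis. Dlg4 is known for an exon that PTB proteins hold out of the transcript; whether the exon printed is that one was not determined.

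A stop codon was annotated for 1646 of the 1647 transcripts. In 1642 it lay more than 50 nt upstream of the last exon junction, the distance beyond which a stop is usually held to trigger decay. The median distance was 478 nt (quartiles 238 and 1034), with a median of 4 junctions after the stop and 282 transcripts with 1. The most abundant protein-coding transcript of each gene served as the reference. Of 1319 such references with an annotated stop, 7 (0.531%) had it that far upstream. The annotation uses this distance to assign the type, so the contrast checks the label and is not a finding. The early stop was TGA in 56.2%, TAA in 22.4% and TAG in 21.4%, against 51.6%, 23% and 25.4% among the references.

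Exon skipping was the commonest route. In 429 transcripts the stop lay in an exon shared with the reference after at least 1 reference exon had been skipped. A single exon was skipped in 351 of these, of median length 106 nt, and in 335 (95.4%) its length was not a multiple of 3. Skipping a multiple of 3 keeps the reading frame, so the annotated type largely sets this percentage, which is not a finding. In 338 the stop lay in an extra exon, internal in 330, of median length 119 nt, and 34.6% of the extra exons had a length divisible by 3. In 258 it lay in an extended exon or a retained intron, in 386 in a shared exon after other changes upstream, and in 83 in a shared exon after an extra exon upstream. In 112 it was the stop of another, protein-coding, transcript of the gene. The remaining 41 had no coding reference or no stop.

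**Figure D1:**
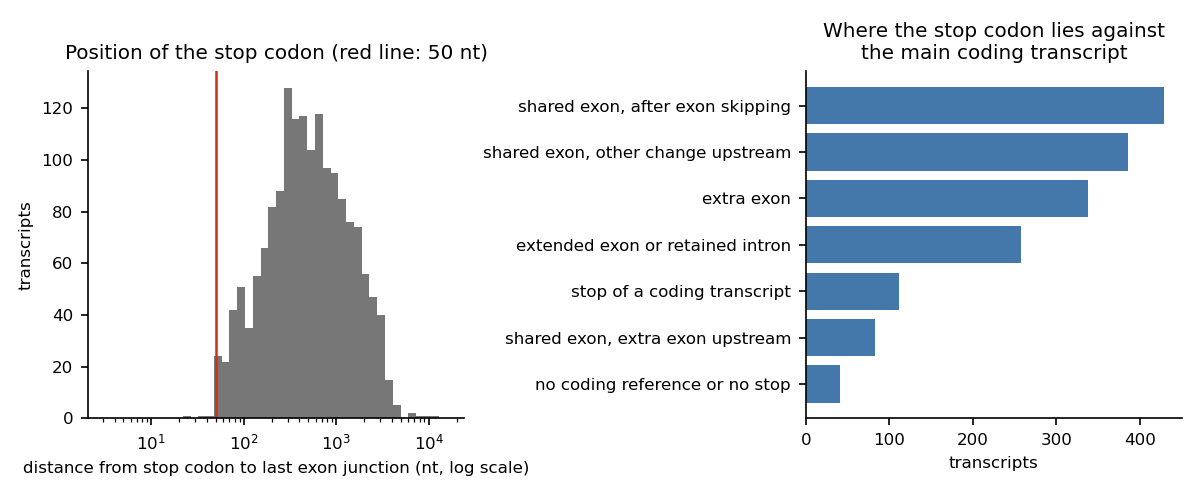
Left, number of transcripts by the distance in nt (log scale) from the stop codon to the last exon junction, with a red line at 50 nt; right, number of transcripts by where the stop lies against the gene's most abundant protein-coding transcript. All but a few stops lie beyond the line, and stops in a shared exon after exon skipping (429) form the largest class.

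How well a transcript can be told from the others of its gene differs widely. The median transcript had 98 nt that its reference lacks, but 415 had none, and for these the reads are assigned by exon junctions and fragment lengths alone. Transcripts were mostly shorter than their reference (1225 shorter, 380 longer). An annotated start of the reading frame was missing in 349, and 751 had the best transcript support level, 1, while 520 had the poorest, 5. The split of reads between transcripts is RSEM's estimate, and its uncertainty is carried by none of the tests.

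As a share of its gene's summed transcript counts, the median transcript accounted for 7.53% (quartiles 3.11% and 20.5%). There were 617 with a mean share under 5%, 897 between 5% and 50%, 133 with 50% or more, and 47 with 90% or more. Shares are of counts and are not corrected for length. Together the transcripts held 1.91% and 1.91% of all counts in DIV1 wild type, 1.625% and 1.67% at DIV3, and 2.06% and 1.95% in the knockout. As a share of their genes' counts this was 12.8% and 12.8%, 11.65% and 12.02%, and 14.0% and 13.0%. The DIV3 libraries were the lowest and the knockout libraries the highest, with no overlap between groups. The means were 12.8% ± 0.0326 (SD, n = 2), 11.8% ± 0.261 and 13.5% ± 0.708. No test was made, since 2 libraries against 2 cannot give an exact permutation p under 0.33.

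**Figure D2:**
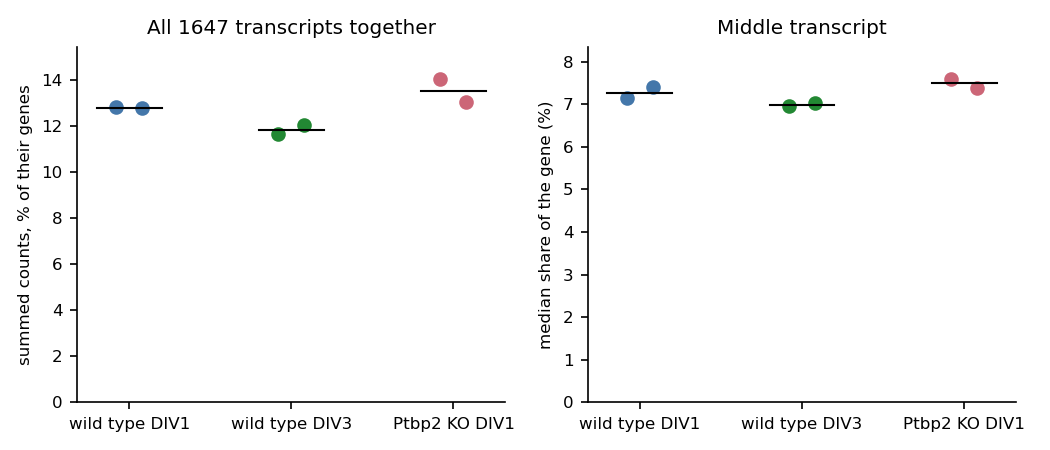
Each dot is a library and each line the mean of 2, for the summed counts of all 1647 transcripts as a percentage of their genes' counts (left) and for the median share over transcripts (right). The DIV3 libraries lie lowest in both panels; the median shares range from 6.95% to 7.59%.

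The most abundant transcripts are described next. Ddx5-208, from the gene of the RNA helicase DDX5, had a mean of 28252 expected counts, and its stop lay in a retained intron or extended exon. Its share of Ddx5 was 28.4% and 33.1% in DIV1 wild type, 23.7% and 20.9% at DIV3, and 24.1% and 30.8% in the knockout. Both DIV3 values lay under both DIV1 values, while the knockout overlapped wild type. The difference did not pass the usage test described below (adjusted p = 1, edgeR diffSpliceDGE, Benjamini-Hochberg).

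The next in mean count were Hnrnpu-206 (23692 counts), Lars2-209 (20210), Cbx1-204 (15493) and Tnik-207 (15092). Hnrnpu, the gene of a nuclear RNA-binding protein, had 37.0% and 35.3% of its counts in this transcript in DIV1 wild type, 36.3% and 33.2% at DIV3, and 28.8% and 35.0% in the knockout. Lars2-209, from the gene of the mitochondrial leucyl-tRNA synthetase, held 85.1% to 97.2% of its gene in every library. Its counts were 36216 and 10189 in the wild-type DIV1 pair. Cbx1-204, from the gene of heterochromatin protein HP1 beta, held 85.7% to 93.3%. Tnik-207, from the gene of a kinase of Wnt signalling, held 79.9% and 80.5%, 73.1% and 77.5%, and 88.9% and 82.3%.

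Others among the 10 most abundant belonged to genes of translation and protein folding. Rpl12-201 held 46.2% to 60.5% of the ribosomal protein gene Rpl12, Rpl27a-205 77.0% to 83.9% of Rpl27a, Eif4a1-201 8.18% to 16.9% of the initiation helicase gene Eif4a1, and Cct8-209 27.6% to 47.8% of the chaperonin subunit gene Cct8. Atp2a2-203 held 62.1% to 82.5% of Atp2a2, the gene of the calcium pump SERCA2. Rpl12 is a textbook case of an autoregulated ribosomal protein gene. At the far end, 33 transcripts had a share of 100% in every library. They include Arid5b-201, Hspbap1-201 and Pggt1b-201, for which a share carries no information on splicing.

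The first comparison was wild type at DIV3 against DIV1, the interval of axon formation. Shares shifted downwards more often than upwards. Of the 1600 transcripts that could be tested for usage, 285 (17.8%) had both DIV3 shares above both DIV1 shares, and 430 (26.9%) had both below. Among all 26145 transcripts with a mean of at least 50 that were tested, these percentages were 21.4 and 24.3, so the count of higher shares lay under the background and that of lower shares over it. The median difference was -0.194 percentage points, against -0.0327 over all. Retained-intron transcripts leaned further the same way (9.27% higher, 36.5% lower of 4649) and protein-coding transcripts the other way (25.5% higher, 20.3% lower of 17504). Shares of a gene sum to 100%, so these directions depend on each other.

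**Figure D3:**
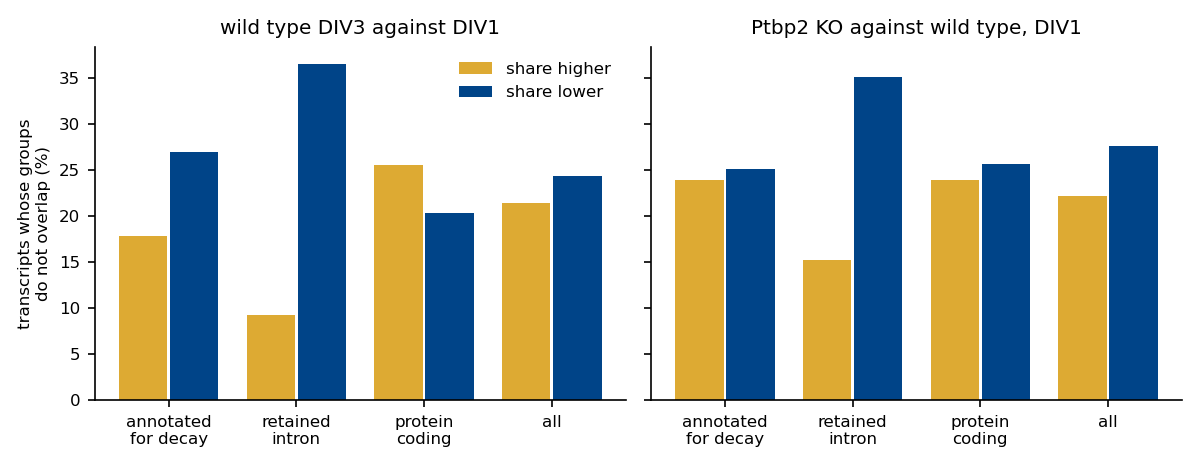
Percentage of transcripts, by annotated type, whose 2 shares at DIV3 (left) or in the knockout (right) both lie above (higher) or both lie below (lower) the 2 shares of wild type at DIV1, for transcripts with a mean of at least 50 counts that were tested for usage. Transcripts annotated for decay reached 17.8% higher and 26.9% lower at DIV3, and 23.9% and 25.1% in the knockout.

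Among the ways of reaching the early stop, extra exons had the largest excess of lower shares at DIV3, with 113 of 338 lower (33.4%) and 60 higher (17.8%). After exon skipping 104 of 429 were lower (24.2%) and 83 higher (19.3%), and in extended exons or retained introns 68 of 258 were lower (26.4%) and 51 higher (19.8%). Differences between these classes were not tested, since transcripts of a gene are not independent.

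A stricter reading came from the usage test, edgeR's diffSpliceDGE, which compares each transcript's change with that of the rest of its gene (adjusted p under 0.05 over all 40551 transcripts tested). It called 8 of the 1600, 4 higher and 4 lower at DIV3. There were 57 at an unadjusted p under 0.05, against 3.37% of all transcripts. Leaving out a library leaves 1 in its group, and the count of calls then moved in both directions. With all 6 libraries the called percentage over all transcripts was 0.409 (0.212 higher, 0.197 lower), so 8 of 1600, 0.5%, lay near the background there. In 7 of the 8 all libraries of 1 group were at 0. The diffSplice test of limma, run on the same transcripts, called 10 (0.625%, against 0.478% of all), none of them among the 8.

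Sms-204, from the gene of spermine synthase, skips 115 nt of its reference and was counted at 468 and 589 in the wild-type DIV1 libraries, 0 and 0 at DIV3, and 373 and 219 in the knockout. Its share of Sms was 7.79% and 9.47% at DIV1 and fell to 0% at DIV3 (adjusted p = 3.18e-07, edgeR diffSpliceDGE, Benjamini-Hochberg). The gene itself rose, with a log2 fold change of 0.58 ± 0.07 (SE; adjusted p = 0.00129, edgeR quasi-likelihood test). Slx4-205, with its stop in a 118-nt extra exon of the gene of a scaffold of DNA repair nucleases, moved the other way. It was at 0 and 0 counts in DIV1 wild type, 200 and 70.2 at DIV3, and 166 and 151 in the knockout. Its share rose to 5.64% and 4.03% at DIV3 (adjusted p = 4.4e-06) and to 8.78% and 5.11% in the knockout (adjusted p = 1.06e-06). Slx4-205 reached the minimum mean count through the DIV3 and knockout libraries alone. Its selection thus left no direction but higher in either comparison. Both comparisons rest on the same wild-type libraries at 0, so the calls are not independent. Of 10 other settings 9 still called Sms-204 at DIV3, and 9 of 10 called Slx4-205 in each comparison; limma's diffSplice called neither.

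Dhx16-207, from the gene of a splicing helicase, held 2.40% and 4.70% of its gene at DIV1 and fell to 0 at DIV3 (adjusted p = 6.06e-05), and Nprl3-212, from the gene of a subunit of the nutrient sensor GATOR1, fell from 2.45% and 2.73% to 0 (adjusted p = 0.0025). Ptch1-204, from the gene of the Hedgehog receptor, rose from 0 to 3.37% and 4.24% (adjusted p = 0.00581), and Mettl25-204 from 0 to 12.2% and 53.8% (adjusted p = 0.0219). Supt20-210, from the gene of a SAGA complex subunit, was called higher on 1 library, with shares of 0 and 7.87% at DIV3 (adjusted p = 0.0262). Gpi1-207, from the gene of glucose-6-phosphate isomerase, fell from 1.06% and 3.53% to 0.252% and 0 (adjusted p = 0.0441). The largest of these 6 by count, Gpi1-207, had 74.7 and 284 counts at DIV1 and 21.6 and 0 at DIV3. Most of these calls depended on the setting: Gpi1-207 was called in 1 of 10 alternatives, Ptch1-204 in 3 of 10, Supt20-210 in 3 of 9, Mettl25-204 in 5 of 10, Nprl3-212 in 6 of 10 and Dhx16-207 in 7 of 9. A transcript at 0 in a group passed the minimum of 50 only through the other groups. A call against that group thus had only 1 possible direction.

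Larger shifts in share were measured in transcripts that the usage test did not call. In genes with a mean of at least 200 counts, the gains with no overlap were led by Tmem241-207, whose share differed by 45.1 percentage points (adjusted p = 0.401 in the edgeR usage test), and the losses by Nadsyn1-207, with -29.3 points (adjusted p = 1). Mta3-208, from the gene of a chromatin remodelling subunit, held 38.6% and 35.0% at DIV1 and 54.4% and 56.7% at DIV3. The knockout libraries were at 25.1%, below both DIV1 values, and at 38.2%, between them. Cyp20a1-203 went from 33.9% and 22.9% to 57.0% and 45.9%, and Il1rap-204, from the gene of an interleukin receptor subunit, from 6.73% and 8.54% to 27.9% and 31.8%. Among the largest losses, Dgkz-212, from the gene of diacylglycerol kinase zeta, went from 23.6% and 23.7% to 1.103% and 4.30%, and Rad51d-205, from a gene of recombination repair, from 33.7% and 27.3% to 12.8% and 4.90%. Gcfc2-206 went from 56.7% and 56.0% to 41.0% and 34.2%. The adjusted p of Mta3-208 and Gcfc2-206 was 1 in the usage test.

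The genes themselves were tested with edgeR's quasi-likelihood test. Of the 1364 genes with a described transcript that could be tested, 225 (16.5%) rose and 232 (17%) fell at DIV3, against 19.8% and 16.4% of all 16847 genes (36.1% in either direction). Scaling by library totals in place of TMM moved this split to 153 higher and 393 lower, and the median log2 difference over all genes from -0.02 to -0.13. Whether the share had gone up or down made little difference to the gene. Genes were called higher for 16.4% of the 287 transcripts with a higher share and 16% of the 431 with a lower share, and called lower for 17.8% and 16%. The transcripts' own level was called for 13 higher and 11 lower of 1638 (0.794% and 0.672%), against 1.88% and 0.845% of all transcripts. The gene calls were 457 in all (33.5%, against 36.1% of all genes). Leaving out any 1 of the 4 wild-type libraries leaves 1 in its group. Both the gene calls and the level calls then fell, and so did the percentages over all genes and all transcripts.

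The second comparison was the knockout against wild type at DIV1. Ptbp2 as a whole gene stood at 465 and 429 CPM (counts scaled to the TMM-adjusted library size) in DIV1 wild type, 403 and 382 at DIV3, and 474 and 514 in the libraries labelled knockout. Its log2 difference of 0.14 ± 0.09 (SE) did not pass the test (adjusted p = 0.413), and a count over the whole gene cannot check a deletion of part of it, so knockout denotes the label. Ptbp2 has 2 annotated decay transcripts among those counted, Ptbp2-208 and Ptbp2-206, with means of 23.6 and 5.98 counts, both under the minimum. Ptbp2-208 had 29.9 and 17.9 counts in wild type at DIV1 and 0 and 3.99 in the knockout.

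Knockout replicate 1 stood apart. The median absolute distance of its shares from the DIV1 wild-type mean was 2.77 percentage points, against 1.14 for knockout replicate 2 and 1.63 and 1.3 for the DIV3 libraries. The median absolute difference in share between replicates was 2.44 percentage points in the knockout, against 1.13 at DIV1 and 1.48 at DIV3 in wild type, and it reached 20 points in 116, 14 and 24 transcripts. The differences moved with length. Among the 540 transcripts under 50% of the length of their reference, the share in knockout replicate 1 was above that in replicate 2 in 35.7%, and among the 382 at least as long as it in 35.1%, but among the 685 in between in 56.2%. In wild type these percentages lay between 45.1 and 52.6. Prmt6-202, from the gene of an arginine methyltransferase, shows the size of the gap. Its share was 64.5% and 65.2% in DIV1 wild type, 68.8% and 64.5% at DIV3, and 3.67% and 62.5% in the knockout. The part of this gap in the results below was not tested beyond the values without each library.

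**Figure D4:**
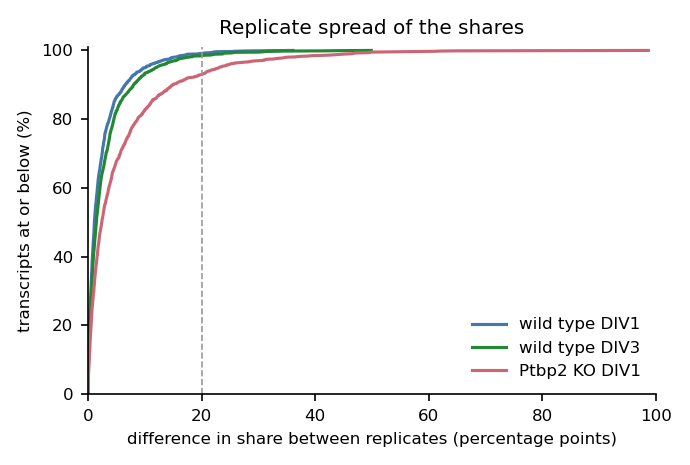
Cumulative percentage of transcripts (vertical axis) by the absolute difference in share between the 2 replicates of a group (percentage points), with a dashed line at 20 points. The knockout curve lies below the wild-type curves; 116 transcripts lie beyond 20 points in the knockout, against 14 and 24.

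Of the 1600 transcripts, 382 (23.9%) had both knockout shares above both wild-type shares and 402 (25.1%) had both below, against 22.2% and 27.6% of all transcripts tested. The median difference was -0.0619 percentage points, against -0.183 over all. Leaving out knockout replicate 1 turned the balance, with 36.8% higher and 33.4% lower (33.1% and 35.8% over all transcripts), and leaving out wild-type DIV1 replicate 2 evened it at 36.3% each (34% and 40.4% over all). Retained-intron transcripts were lower in 35.1% and higher in 15.2%. By class, extra exons had 75 of 338 higher (22.2%) and 99 lower (29.3%), while transcripts with exon skipping had 114 of 429 higher (26.6%) and 95 lower (22.1%).

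The usage test called 18 of the 1600 in the knockout (1.12%), 14 higher and 4 lower, against 0.353% higher and 0.286% lower of all transcripts (0.639% in either direction). At an unadjusted p under 0.05 there were 93, against 4.26% of all transcripts. The count rested on single libraries. It rose without knockout replicate 2 and fell without knockout replicate 1 or either wild-type replicate. The percentage over all transcripts moved the same way. Each such fit leaves 1 library in a group. All libraries of 1 group were at 0 in 13 of the 18. Such a transcript passed the minimum mean count only through the other groups, and all transcripts tested were not held to that minimum. The split by direction and the excess over all transcripts therefore cannot be separated from the selection. The diffSplice test of limma called 12 (0.75%, against 0.414% of all transcripts), of which 2 were among the 18. Emc1-204 was 1 of these 2 (adjusted p = 0.00362 in limma's diffSplice).

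Emc1-204, from the gene of a subunit of the membrane protein complex of the endoplasmic reticulum, was present in all 6 libraries, with its stop in an extended exon or retained intron. It was counted at 38.6 and 63 in the wild-type DIV1 libraries, 199 and 151 at DIV3, and 812 and 756 in the knockout. Its share was 1.74% and 2.50%, 6.78% and 9.80%, and 26.9% and 20.5%. The 3 groups did not overlap, and the rise in the knockout was called (adjusted p = 0.00505), while that at DIV3 was not (adjusted p = 0.596). The gene did not pass the test in the knockout (log2 0.15 ± 0.09 SE; adjusted p = 0.387).

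Of the other calls, most were larger in replicate 1. Fxr1-207, from the gene of a relative of the fragile X protein, was at 0 in all 4 wild-type libraries and at 14.0% and 2.87% in the knockout (adjusted p = 0.000783). Dtl-205 was at 0 in wild type and at 17.1% and 3.15% (adjusted p = 0.0157), and Rps6kc1-206 at 0 and at 25.7% and 4.13% (adjusted p = 0.0161). Fxr1-207 and Dtl-205, at 0 in all 4 wild-type libraries, reached the minimum mean count through the knockout libraries alone. Their selection thus left no direction but higher. Sez6-208, from a gene of a neuronal membrane protein, went from 0.237% and 0 to 22.3% and 0.901% (adjusted p = 0.00171), and Snrpa-204, from the gene of a protein of the U1 particle, from 0 to 3.56% and 0.564% (adjusted p = 0.00329). Sncaip-207, from the gene of synphilin, which binds alpha-synuclein, went from 0 to 25.2% and 4.99% (adjusted p = 0.0147). In Ptch1-204 the gap went the other way, with 10.4% and 19.5% (adjusted p = 0.000694). Mettl25-204 and Supt20-210 were also called higher, at 47.7% and 16.6% (adjusted p = 0.0151) and 2.08% and 5.07% (adjusted p = 0.0206). These calls too depended on the setting, with 2 of 9 alternatives for Supt20-210, 3 of 10 for Sncaip-207, 4 of 10 for Mettl25-204, 5 of 10 for Dtl-205, Rps6kc1-206 and Sez6-208, 5 of 9 for Snrpa-204, and 7 of 10 for Fxr1-207, Ptch1-204 and Emc1-204. Over all 18 calls, 95 of 175 alternatives kept the call.

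Calls in the lower direction were of transcripts that were at 0 in both knockout libraries. Kmt5a-213, from the gene of a histone methyltransferase, held 5.52% and 2.94% in wild type at DIV1 and 6.06% and 4.96% at DIV3 (adjusted p = 0.00042), and 9 of 10 other settings still called it, against 6 of 10 for Lrig1-207 and 8 of 9 for Slc37a3-203. Slc37a3-203 held 2.19% and 2.38% (adjusted p = 0.00368). Lrig1-207, from the gene of a regulator of receptor tyrosine kinases, held 7.01% and 6.68% (adjusted p = 0.00179). The log2 differences of the genes Kmt5a, Slc37a3 and Lrig1 were 0.16 ± 0.07, 0.03 ± 0.07 and -0.07 ± 0.12 (SE), in a test that called no gene at all in the knockout.

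The largest differences in share that did not overlap carried the gap between the knockout replicates. Ahcyl1-203 held 13.1% and 16.9% of its gene in wild type at DIV1 and 74.0% and 27.5% in the knockout, Cdk19-204 4.44% and 0 against 74.98% and 13.0%, and Gart-203 4.83% and 9.58% against 76.9% and 27.6%. Pnpla2-201, from the gene of the fat lipase ATGL, was closer between replicates, with 16.6% and 28.8% against 65.3% and 48.0%. None of these 4 was called. Lower shares included Zfp383-202, at 64.2% and 56.6% against 28.7% and 52.0%, and Lmo7-204, at 48.6% and 35.1% against 12.6% and 29.6%.

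No gene with a described transcript was called in the knockout by edgeR's quasi-likelihood test (0 of 1364, against 0% of all genes), with 197 at an unadjusted p under 0.05 and 18 called by DESeq2. Without knockout replicate 2 the count was 564, or 41.3% against 32.1% of all genes, and without replicate 1 it was 3, or 0.22% against 0.25%. DESeq2's 18 were 1.32%, against 0.759% of all genes it was run on. In edgeR an unadjusted p under 0.05 was reached by 14.7% of all genes, and by 6.72% of all transcripts for their own level. The transcripts' own levels gave 0 calls of 1638 (0% of all), with 135 at an unadjusted p under 0.05, 39 by DESeq2 (2.37%, against 0.946% of all) and 77 without knockout replicate 2 (4.68%, against 2.37%).

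Kif21b-204, outside the naming rule and chosen after its values were seen, differed from wild type at DIV1 in both other groups. Kif21b encodes a kinesin motor of neurons. The transcript adds a 180-nt exon whose stop, printed above, lies 80 nt upstream of the last junction, and at 9254 nt it is close in length to its reference, 9115 nt. It was counted at 4155 and 4277 in the wild-type DIV1 libraries, 13610 and 6540 at DIV3, and 6488 and 12560 in the knockout. Its share was 15.4% and 16.5% in DIV1 wild type, 34.6% and 34.6% at DIV3, and 30.7% and 39.2% in the knockout. Both DIV3 and both knockout values lay above wild type at DIV1, and the shares per length were nearly the same, at 14.96% and 16.2%, 33.8% and 33.9%, and 30.3% and 38.5%. The usage test of edgeR did not call it (adjusted p = 0.389 at DIV3 and 0.283 in the knockout), while limma's diffSplice did (adjusted p = 0.00314 and 0.00201). Limma on log ratios of shares did not (adjusted p = 0.448 and 0.461). With the length trend removed, edgeR's usage test called it in the knockout (adjusted p = 0.0292) but not at DIV3. Kif21b as a gene had log2 differences of -0.02 ± 0.10 (SE) at DIV3 and -0.36 ± 0.10 in the knockout, neither of which passed the test.

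**Figure D5:**
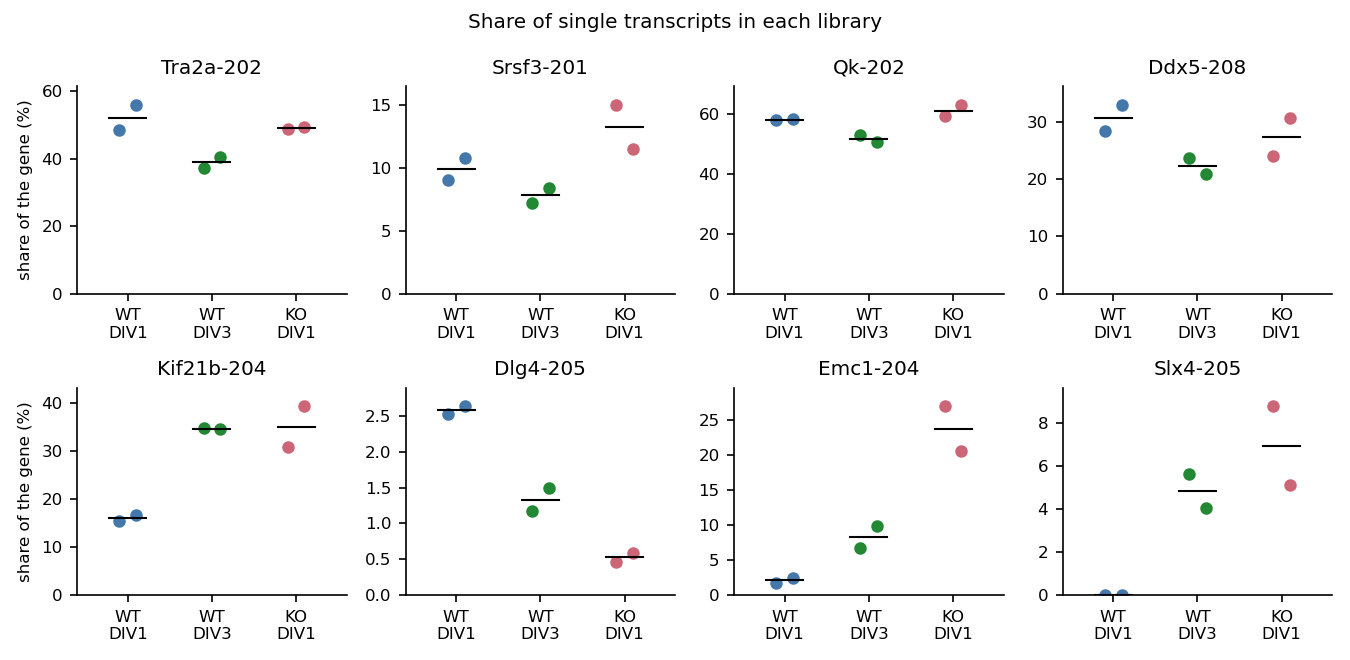
Share of the gene's counts (%) held by 8 transcripts annotated for decay, with a dot for each library and a line for the mean of 2, each panel on its own axis from 0. Kif21b-204 and Emc1-204 lie lowest in DIV1 wild type, Dlg4-205 lies highest there, and Slx4-205 is at 0 there.

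Genes with exons known to be steered into or out of decay by PTB proteins came next (Ptbp1, Ptbp2, Dlg4, Bak1, Gabbr1 and Flna), of which 5 held a described transcript. Dlg4-205 held 2.53% and 2.64% of Dlg4 in DIV1 wild type, 1.17% and 1.49% at DIV3, and 0.458% and 0.592% in the knockout. The 3 groups did not overlap. The edgeR usage test did not call it in the knockout (adjusted p = 0.379), while limma's diffSplice did (adjusted p = 0.0222). Of 9 other settings, 1 called it in the knockout, and limma on log ratios of shares did not (adjusted p = 0.149). Its counts were 195 and 210, 171 and 110, and 57.1 and 103. Dlg4 as a gene rose at DIV3 by 0.35 ± 0.07 on the log2 scale (SE; adjusted p = 0.00697), and differed by 0.57 ± 0.07 in the knockout (adjusted p = 0.0886).

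Bak1-201, with the 20-nt exon printed above, held 7.21% and 8.44% of Bak1 in DIV1 wild type, 12.9% and 8.11% at DIV3, and 6.09% and 7.11% in the knockout. Its counts ran from 41.3 to 122 per library. DIV3 overlapped DIV1, and the knockout values lay just below wild type. Gabbr1-205, from the gene of a GABA-B receptor subunit, held 1.29% and 2.72%, 1.00% and 0.494%, and 0.534% and 0.751%. Gabbr1 as a gene rose at DIV3 (log2 0.62 ± 0.09 SE; adjusted p = 0.00298). Ptbp1-212, a 385-nt transcript with no sequence of its own against the reference, held 0.665% and 1.05%, 0.911% and 1.19%, and 0.262% and 0.584%. Ptbp1 as a gene fell at DIV3 (log2 -0.57 ± 0.09 SE; adjusted p = 0.00276).

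Flna-213, from the gene of the actin cross-linker filamin A, held 23.3% and 33.7% in DIV1 wild type, 1.59% and 32.5% at DIV3, and 60.1% and 52.4% in the knockout. One DIV3 library lay far below and the other inside the range of DIV1, and both knockout libraries lay above it. Only 24 nt of its 8233 are absent from the reference. Flna as a gene fell at DIV3 (log2 -0.68 ± 0.09 SE; adjusted p = 0.00196), and its difference in the knockout was -1.11 ± 0.09 (adjusted p = 0.059). None of the 5 transcripts was called in the usage test in either comparison. Of the 6 genes, 2 rose and 2 fell at DIV3 and none was called in the knockout, with a median log2 difference of -0.02 and 0.04, and 4 and 2 at an unadjusted p under 0.05. Over all genes 19.8% rose and 16.4% fell at DIV3, and 0% were called in the knockout. At an unadjusted p under 0.05 these were 46.2% and 14.7% of all genes.

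SR proteins bind exonic enhancers and promote splicing. Of 13 genes, 7 held 9 described transcripts. At DIV3 Srsf12 rose and Srsf4, Srsf6 and Srsf11 fell, and the other 9 did not pass the test, with a median log2 difference of -0.21. Among all genes 19.8% rose and 16.4% fell. Tra2a-202, with the exon printed above, held 48.4% and 55.9% of Tra2a in DIV1 wild type, 37.3% and 40.5% at DIV3, and 48.7% and 49.4% in the knockout. Its means were 52.1% ± 5.36 (SD, n = 2), 38.9% ± 2.28 and 49.0% ± 0.516. The DIV3 values lay below DIV1 without overlap. Over the same libraries the coding transcript Tra2a-201 held 37.6% and 33.5%, 45.7% and 47.6%, and 43.1% and 38.8%. Tra2a as a gene differed by -0.21 ± 0.08 at DIV3 (SE; adjusted p = 0.086).

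Srsf3-201 held 9.02% and 10.7% of Srsf3 in DIV1 wild type, 7.23% and 8.35% at DIV3, and 14.99% and 11.5% in the knockout, with no overlap between the 3 groups. Srsf4-204 held 10.9% and 11.4%, 7.28% and 8.91%, and 8.20% and 9.51%. Srsf9-205 went the other way at DIV3, with 9.25% and 8.17% against 13.8% and 13.0%. Tra2b-206 held 28.7% and 27.2%, 29.7% and 25.8%, and 15.6% and 25.9%, so that the knockout lay below wild type at DIV1 and DIV3 overlapped it. Srsf6-201, Srsf1-204, Srsf1-207 and Srsf4-203 overlapped in both comparisons. In all, 1 of the 9 was higher and 3 lower at DIV3 without overlap, 1 higher and 2 lower in the knockout, and none was called in the usage test. The shares over all transcripts were 21.4% and 24.3% at DIV3, and 22.2% and 27.6% in the knockout.

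Among 27 genes of hnRNP and PTB proteins, RNA-binding proteins that often repress exons, none rose and 9 fell at DIV3, with a median log2 difference of -0.24. The falls included Hnrnph3 (-0.73 ± 0.07 SE; adjusted p = 0.000431), Hnrnpm (-0.58 ± 0.08; adjusted p = 0.00191) and Hnrnpa1 (-0.49 ± 0.10; adjusted p = 0.00908). Over all genes 19.8% rose and 16.4% fell. Of their 11 described transcripts, 1 was higher and 2 lower at DIV3 without overlap (21.4% and 24.3% over all transcripts). In the knockout 1 was higher and 8 lower (22.2% and 27.6%). The knockout counts of this and the other lists were not made without knockout replicate 1, which stood apart. Hnrnph3-204 held 53.1% and 54.6%, 52.5% and 53.6%, and 61.8% and 55.8%, the 1 that was higher in the knockout. Hnrnpll-203, with its stop in an extra exon, held 13.6% and 15.7%, 12.8% and 11.6%, and 12.7% and 13.5%. Syncrip-203 held 10.6% and 8.92%, 10.9% and 8.23%, and 4.45% and 8.38%. Hnrnpa2b1-207 and Hnrnpk-203, each under 1% of their gene in every library, were lower in the knockout too.

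The list of 60 other splicing factors held 38 described transcripts in 23 genes. Of the 60 genes, 7 rose and 15 fell at DIV3, against 19.8% and 16.4% of all genes. Rises included those of the neuronal regulators Rbfox1 (log2 1.17 ± 0.09 SE, adjusted p = 0.000235, edgeR quasi-likelihood test), Celf6 (1.09 ± 0.11, adjusted p = 0.000532) and Celf4 (0.79 ± 0.07, adjusted p = 0.000366). Neuronal regulators did not all rise. Elavl4 fell (-0.45 ± 0.08, adjusted p = 0.0056), and Srrm4 (-0.27 ± 0.10, adjusted p = 0.0703) and Rbfox3 (-0.06 ± 0.10, adjusted p = 0.683) were not called. Of the 38 transcripts, 6 were higher and 19 lower at DIV3 without overlap, and 10 higher and 17 lower in the knockout, with none called in the usage test. Over all transcripts 21.4% were higher and 24.3% lower at DIV3, and 22.2% and 27.6% in the knockout. Qk-202, from the gene of the RNA-binding protein Quaking, held 57.8% and 58.1% in DIV1 wild type, 52.8% and 50.5% at DIV3, and 59.1% and 63.0% in the knockout, so that the 3 groups did not overlap. Son-212, from the gene of a speckle protein, held 18.9% and 20.4%, 15.7% and 12.2%, and 7.42% and 19.5%. Prpf38b-208 held 24.7% and 26.9%, 17.9% and 21.7%, and 35.2% and 27.7%.

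In Clk1, the skipping transcript printed above, Clk1-210, held 19.0% and 14.1% in DIV1 wild type, 12% and 11.98% at DIV3, and 20.2% and 11.0% in the knockout. Clk1-211 held 2.59% and 2.51%, 0.944% and 1.45%, and 1.95% and 1.71%. Both lay lower at DIV3 without overlap, while Clk1 as a gene differed by -0.03 ± 0.11 (SE; adjusted p = 0.845). Ddx5-205, the second of 2 described Ddx5 transcripts, held 1.90% and 1.94%, 0.0802% and 0.802%, and 3.89% and 3.20%, with an unadjusted p of 0.00453 in the edgeR usage test at DIV3 and an adjusted p of 0.369. Tardbp-208 and Tardbp-228, from the gene of TDP-43, held 10.6% and 11.0% against 7.80% and 9.18%, and 24.7% and 24.5% against 24.1% and 22.6%, in wild type at DIV1 against DIV3. Khdrbs1-202, from the gene of the splicing regulator Sam68, was higher at DIV3, with 3.34% and 3.62% against 6.20% and 5.06%.

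Several genes held more than 1 described transcript (228 genes, of which 8 had 4 or more), and such transcripts draw on the same counts. The 4 of Rbm39, the gene of a splicing cofactor, all have their stop in an extra exon. Rbm39-225, the largest, held 6.27% and 4.50% in DIV1 wild type, 4.18% and 3.58% at DIV3, and 1.14% and 5.10% in the knockout. Rbm39-223 held 2.45% and 1.90%, 1.71% and 0.964%, and 0.740% and 1.54%. Rbm39-222 and Rbm39-215 overlapped between DIV1 and DIV3. All 3 of Tial1, the gene of an RNA-binding protein of stress granules, have their stop in an extra exon and lay lower at DIV3 without overlap. Tial1-204, the largest, held 7.66% and 7.10%, 6.66% and 5.17%, and 4.57% and 7.01%.

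Some differences without overlap were small. Snrpb-203, printed above, from the gene of a core Sm protein of the spliceosome, held 2.20% and 1.83% of Snrpb in DIV1 wild type, 2.47% and 2.70% at DIV3, and 2.52% and 2.47% in the knockout. Cirbp-201, from the gene of a cold-inducible RNA-binding protein, held 2.11% and 2.24%, 1.98% and 1.94%, and 2.93% and 2.75%. Neither overlapped wild type at DIV1 in either comparison, yet all values of each transcript lay close together. Rpl3-205, from the ribosomal protein gene Rpl3, known for a decay transcript, held 0.251% and 0.3298%, 0.199% and 0.183%, and 0.397% and 0.399%.

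Genes of the decay machinery itself held a single described transcript. Smg6-202, from the gene of the endonuclease of the pathway, skips a 62-nt exon, and held 4.41% and 16.7% in DIV1 wild type, 2.40% and 11.1% at DIV3, and 50.1% and 18.7% in the knockout. The replicates of each group differed several-fold, and the usage test did not call it (adjusted p = 1 in both comparisons). Of 27 genes of the machinery, none rose and 6 fell at DIV3, against 19.8% and 16.4% of all genes. The falls were of Upf3b (-0.40 ± 0.07 SE; adjusted p = 0.00552), Pnrc2 (-0.63 ± 0.08; adjusted p = 0.00121), Dhx34 (-0.52 ± 0.11; adjusted p = 0.00997), and the exon junction complex genes Casc3 (-0.32 ± 0.07; adjusted p = 0.0115), Magoh (-0.41 ± 0.10; adjusted p = 0.0193) and Eif4a3 (-0.29 ± 0.09; adjusted p = 0.0431). Upf1, the central helicase, was not called, with a mean of 92.0 CPM at DIV1 and 88.2 CPM at DIV3 (adjusted p = 0.527).

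A last list held 15 genes known from other systems to be sensitive to decay, among them Gas5, Atf4 and the snoRNA host genes. The lists overlap, so their counts are not independent. Clk1 and Snrpb are also among the other splicing factors, and Upf2 and Smg5 also among the decay machinery. Ptbp1 and Ptbp2 are on both the hnRNP list and that of PTB-regulated exons. None rose and 5 fell at DIV3 (Snhg1, Snhg15, Gadd45a, Ddit3 and Atf4), with a median log2 difference of -0.28, and none was called in the knockout, with a median of 0.21 and 5 at an unadjusted p under 0.05. The 5 described transcripts in 4 of these genes counted 1 higher and 4 lower at DIV3 without overlap, and 2 higher and 1 lower in the knockout. Over all transcripts these were 21.4% and 24.3%, and 22.2% and 27.6%, and 16.4% of all genes fell at DIV3. Snhg1 fell from a mean of 100 CPM to 64.5 CPM (log2 -0.64 ± 0.11 SE; adjusted p = 0.00423). No gene of the SR, hnRNP, other splicing or decay machinery lists was called in the knockout either, with 0, 0, 11 and 6 at an unadjusted p under 0.05, and their median log2 differences were 0.01, -0.01, -0.09 and 0.02. In the knockout 14.7% of all genes were at an unadjusted p under 0.05.

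Cell type markers moved with the first comparison, in which 19.8% of all genes rose and 16.4% fell. Of 10 neuron markers 7 rose and 1 fell at DIV3, and their summed level went from 7416 and 7296 CPM to 12240 and 12380 CPM, with 6637 and 6995 CPM in the knockout. Genes of the cell cycle (8 of 8) and intermediate progenitors (6 of 6) fell, and of 9 radial glia markers 6 fell and 2 rose. Summed cell cycle levels were 1795 and 1729, 921 and 918, and 1878 and 1857 CPM. Of astrocyte markers 4 of 5 tested rose and 1 fell, of oligodendrocyte lineage markers 3 of 6 rose, of pericyte and fibroblast markers 6 of 6 rose, of microglia markers 2 of 5 tested fell, of endothelial markers 0 of 2 tested were called, and of erythroid genes 5 of 5 fell. Summed levels of these 6 lists lay between 0.361 and 177 CPM in every library and no gene of the marker lists was at 0 in all 6 libraries. Radial glia markers summed to 1981 and 1924, 1816 and 1858, and 2233 and 1992 CPM, and intermediate progenitor markers to 672 and 653, 365 and 346, and 645 and 651 CPM. None of these marker lists holds a described transcript. In bulk RNA fewer cells of a type and less RNA per cell cannot be told apart, and the part of cell type in the share differences was not tested.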

How the data were processed

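Cultured cortical neurons gave 6 RNA libraries, sequenced after TRIzol extraction, DNase treatment and stranded total RNA library preparation, per the labels' protocols. The authors deposited expected counts per gene and per transcript; the submitters' processing notes name STAR, RSEM, GRCm38 and mm10, with no version and no annotation release. Expected counts were rounded for the tests. Transcript types, exons and stop codons came from GENCODE M21, joined by identifier without version: 99.4% of transcripts matched, and 97% of the described transcripts had the same version. Transcripts absent from the join held 0.265% of counts.

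Totals of 39104879 to 75522198 expected counts per library set the precision; at a mean near 50 a share rests on few reads. Groups were taken from the labels. All 6 libraries entered 1 fit with TMM scaling and filterByExpr (minimum count 10) in edgeR 4.0.16 under R 4.3.3: the quasi-likelihood test for genes and transcripts, and diffSpliceDGE for a transcript against its gene. Calls had a Benjamini-Hochberg adjusted p under 0.05 over all features tested. Tests were first run on simulated counts with known changes. Alternatives used limma 3.58.1 and DESeq2 1.42.0, other scalings, filters and thresholds, and left out each library. Tables and plots used Python 3.11.15, pandas 2.3.3, scipy 1.17.1 and matplotlib 3.10.9.

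Described transcripts and gene lists (SR proteins, hnRNP and PTB proteins, other splicing factors, decay machinery, PTB-regulated decay exons, decay-sensitive genes and cell type markers) were chosen with earlier results of these data known. Transcripts named were, per comparison, up to 15 called in the usage test, the 10 with the highest mean count, the 8 with the highest mean share, the 6 largest non-overlapping rises and 6 falls in share (the last 3 choices of share in genes with a mean of 200 or more), those in the splicing, decay and PTB lists, and the 3 on either side of the minimum. One transcript that this rule names is not reported here.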

Additional observations from a re-analysis of the deposited data

How the results depend on the processing

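The replicate numbers were not taken to pair the samples, since no label ties them to a litter or day. The log2 difference between replicates 1 and 2 was correlated between groups, and not every pair of groups correlated. The Pearson correlations of these differences over genes were 0.375 for wild type DIV1 with DIV3 and 0.0384 for wild type DIV1 with the knockout. For DIV3 with the knockout the value was -0.0935. Over transcripts they were 0.147, -0.104 and -0.139 in that order. With the replicate block, usage calls were 4 at DIV3 (0.25%, against 0.264% of all transcripts) and 12 in the knockout (0.75%, against 0.456%). Gene calls were 321 (23.5%, against 27.9% of all genes) and 0, and level calls 0 and 0, with 0% of all features at each 0. The 8 usage calls at DIV3 became 5 with a 5% share filter, 2 with limma on log ratios, 15 and 2 for transcripts with a mean of 20 and 100 or more, and 5 to 14 leaving out a library. The 18 in the knockout became 10, 4, 25 and 11 under those settings, and 5 to 106 leaving out a library. The 457 gene calls at DIV3 became 723 with only the groups compared and 180 to 211 leaving out a library. The 0 gene calls in the knockout became 3 with the length trend removed, 1 with a mean of at least 1 count, 18 with DESeq2 and 0 to 564 leaving out a library. The 24 level calls at DIV3 became 140 with DESeq2, 71 with only the groups compared and 0 leaving out any library, and the 0 in the knockout became 39 with DESeq2 and 0 to 77 leaving out a library. Summed shares in wild type at DIV1, DIV3 and the knockout were 11.21%, 10.37% and 11.87% at a mean of 20 or more, 14.62%, 13.61% and 15.44% at 100 or more, and 15.87%, 15.14% and 16.35% per length. They were 11.13%, 10.55% and 12.02% without the 10 genes of the most abundant transcripts, a setting chosen after seeing the data, as were those for the direction of shares. The excess of lower over higher shares in the knockout turned to -2.6 percentage points at a mean of 100 or more, -5.43 at transcript support level 1, and ran from -3.44 (without knockout replicate 1) to 6.44 (without knockout replicate 2) leaving out a library, with 0 without wild-type DIV1 replicate 2. For the usage calls of single transcripts, 43 of 78 alternatives at DIV3 and 95 of 175 in the knockout kept the call, and 115 in all lost it; 5 alternatives called a transcript not called otherwise. The cause was not tested in any of these. Counts near the minimum limit what a share can show.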
